A study of Homo sapiens with 12 samples.

Results

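The genes described here are 46 genes of DNA replication and S phase, listed by name: factors that license origins, the helicase and its activators, the sliding clamp, polymerases, enzymes that supply nucleotides, histone chaperones and S phase repair proteins. They were taken by symbol from the 54553 genes that the files list, and all 46 were among the 18047 genes with enough reads to test. The cells were Caco-2, a line from a human colorectal adenocarcinoma, and the study's title asks how raising lysosomal pH acts on cells that are well fed or starved. All 12 libraries came from sub-confluent cells of this 1 line held for 48 h in their medium, with 3 libraries in each of 4 groups. The rich medium held 1 g/L glucose, 2 mM glutamine and 20% serum, and the depleted medium 0.1 g/L glucose, 0.2 mM glutamine and 1% serum. The base medium also differed (EMEM for growth, glucose- and glutamine-free DMEM for depletion), so sugar, glutamine, serum and base medium changed together and cannot be told apart. Each medium was combined with vehicle or with bafilomycin A1 at 100 nM, a blocker of the V-ATPase, the proton pump that keeps lysosomes acidic.

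Before S phase, ORC, CDC6 and CDT1 load the ring of MCM2 to MCM7 onto origins. At the start of S phase CDC45, GINS and MCM10 turn that ring into a moving helicase, after which polymerases, held on DNA by the PCNA clamp, copy both strands. Many of these genes are transcribed as cells pass from G1 into S phase by E2F factors that the retinoblastoma proteins release when growth conditions allow division, and serum or nutrient withdrawal is a standard way to hold cells before that step.

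Total reads per library were 12969814 in rich-medium vehicle replicate 1 and 33859998 to 51649213 in the other 11. This shallow library also differed in the deposited gene length less effective length (median 245.7 bases, against 166.4 to 187.1 in the other 11). Its Spearman correlations with its own group were 0.966 and 0.967. Beside it, replicate 3 of rich medium with bafilomycin A1 stood apart. Across all tested genes its closest library was one of the other medium, with vehicle (Spearman 0.990, against 0.985 at most within its own group). Rich vehicle replicates 2 and 3 were also closest to a library of another group, one of rich medium with bafilomycin A1, by small margins (0.9786 and 0.9785, against 0.9782 between the pair). The number of members called in each comparison is therefore also given without rich vehicle replicate 1 and rich bafilomycin A1 replicate 3. Of 8 colorectal epithelial markers, 7 were above 1 TPM (a level per gene length, scaled within each library) in all libraries, and all 8 together summed to 1261 to 7630 TPM. CDX1 was the exception, while fibroblast, endothelial and leukocyte markers summed to at most 12.9, 6.46 and 4.11 TPM. Of 5 fibroblast markers 1 was above 1 TPM in all libraries, and none exceeded 9.08 TPM. The labels do not say that replicates were separate cultures, so the p-values speak only of the spread among these libraries, and that spread may be technical. How strand was handled in counting is not given in the sources used here. Reads in stretches where a member overlaps another gene, such as TYMS with ENOSF1, PRIM1 with NACA, FEN1 with FADS2, RFC4 with EIF4A2 and CHAF1B with MORC3, may not have been told apart. Among those named, the overlaps ran from 21 bases (RFC4 with EIF4A2) to 4265 bases (FEN1 with FADS2).

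Depleted medium lowered nearly the whole set. With vehicle, 41 of the 46 genes fell (edgeR's quasi-likelihood test, Benjamini-Hochberg adjusted p under 0.05), against a background of 15.4% of all tested genes called lower. The other 5, CDT1, RFC4, PRIM1, POLD1 and RPA2, did not pass. The median log2 fold change was -1.30 over the 46 genes and 0.04 over all tested genes. In 42 of the 46 the 3 depleted libraries lay below the 3 rich ones with no overlap, against 18.2% of all genes. The largest falls were those of MCM10 (-2.55), RRM2 (-2.29), CLSPN (-2.20), UHRF1 (-2.07) and PCNA (-2.01). In bulk RNA, fewer cells in S phase and less of these RNAs per cell cannot be told apart. Without the 2 libraries that stood apart 42 genes fell, and 32% of all genes were called in either direction.

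Relative to the rich-medium vehicle mean, the median member stood at 40.5% in depleted medium with vehicle, and 34 members were under 50%. The range ran from MCM10 at 17.1% to CDT1 at 114%. With bafilomycin A1 in rich medium the median was 69.7%, from TIPIN at 40.2% to CDT1 at 154%. With both treatments it was 38.6%, from RRM2 at 8.79% to CDT1 at 109%, and 13 members were under 25%, compared with 5 under depletion alone. The group means fell in the order rich vehicle, rich bafilomycin A1, depleted vehicle, depleted bafilomycin A1 for 30 members, and with the last pair exchanged for 14. CDT1 and PRIM1 followed other orders. Library by library, the median member was at 80.6% and 81.8% in replicates 1 and 2 of rich medium with bafilomycin A1 but at 52.6% in replicate 3, which was the lowest of its group for 45 of 46 members. The depleted libraries were closer together, at 38.2%, 42.3% and 39.7% with vehicle and 37.4%, 38.3% and 36.9% with bafilomycin A1.

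**Figure D1:**
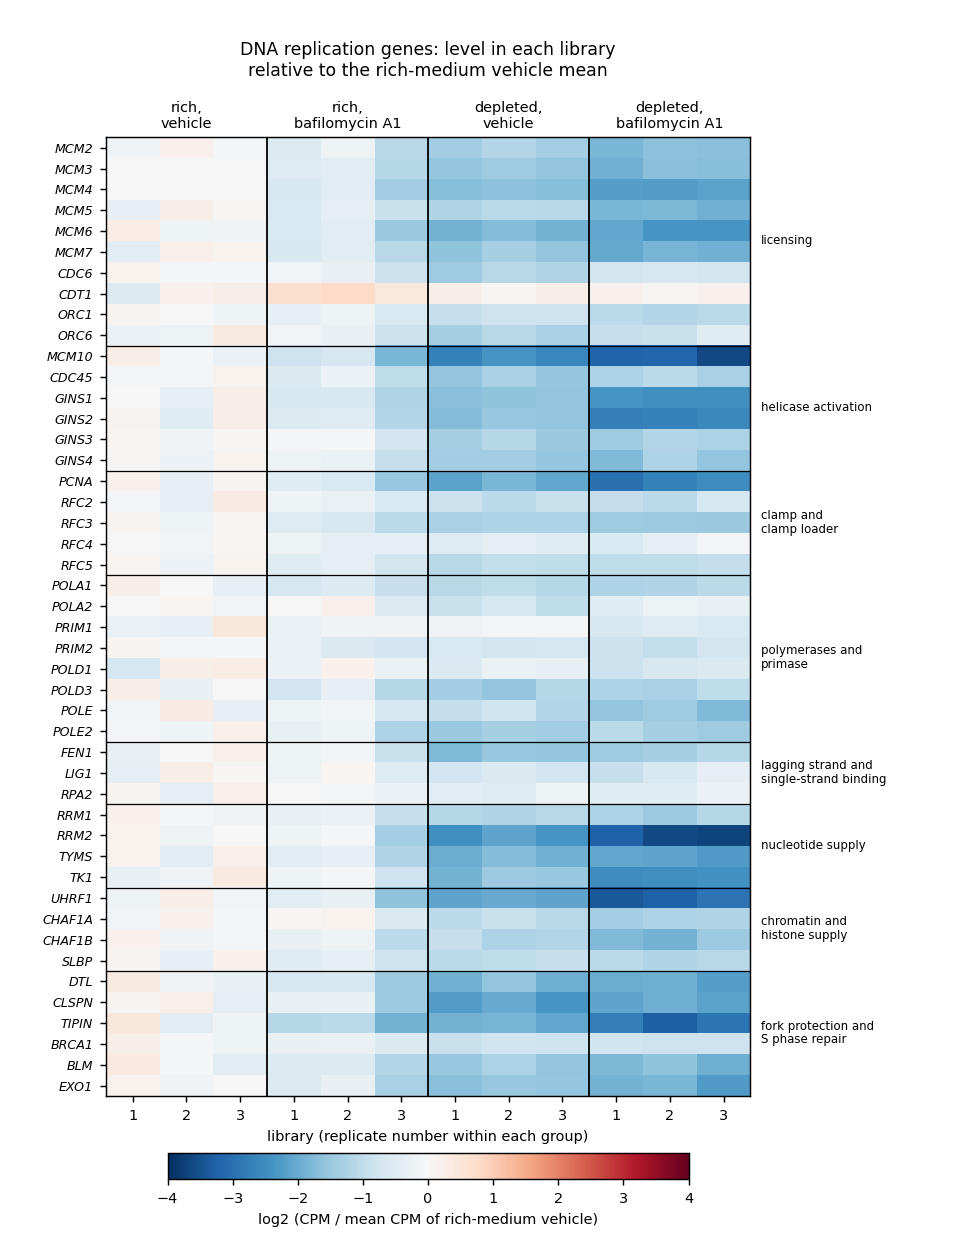
Level of each of the 46 genes (rows, ordered by role) in each of the 12 libraries (columns, by group and replicate), as log2 of the TMM-scaled CPM over the rich-medium vehicle mean (colour scale, blue lower and red higher). Blue fills the 6 depleted-medium columns except for CDT1 and a few pale rows such as RFC4 and PRIM1, and replicate 3 of rich medium with bafilomycin A1 is bluer than its neighbours, with a median of 52.6%.

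**Figure D2:**
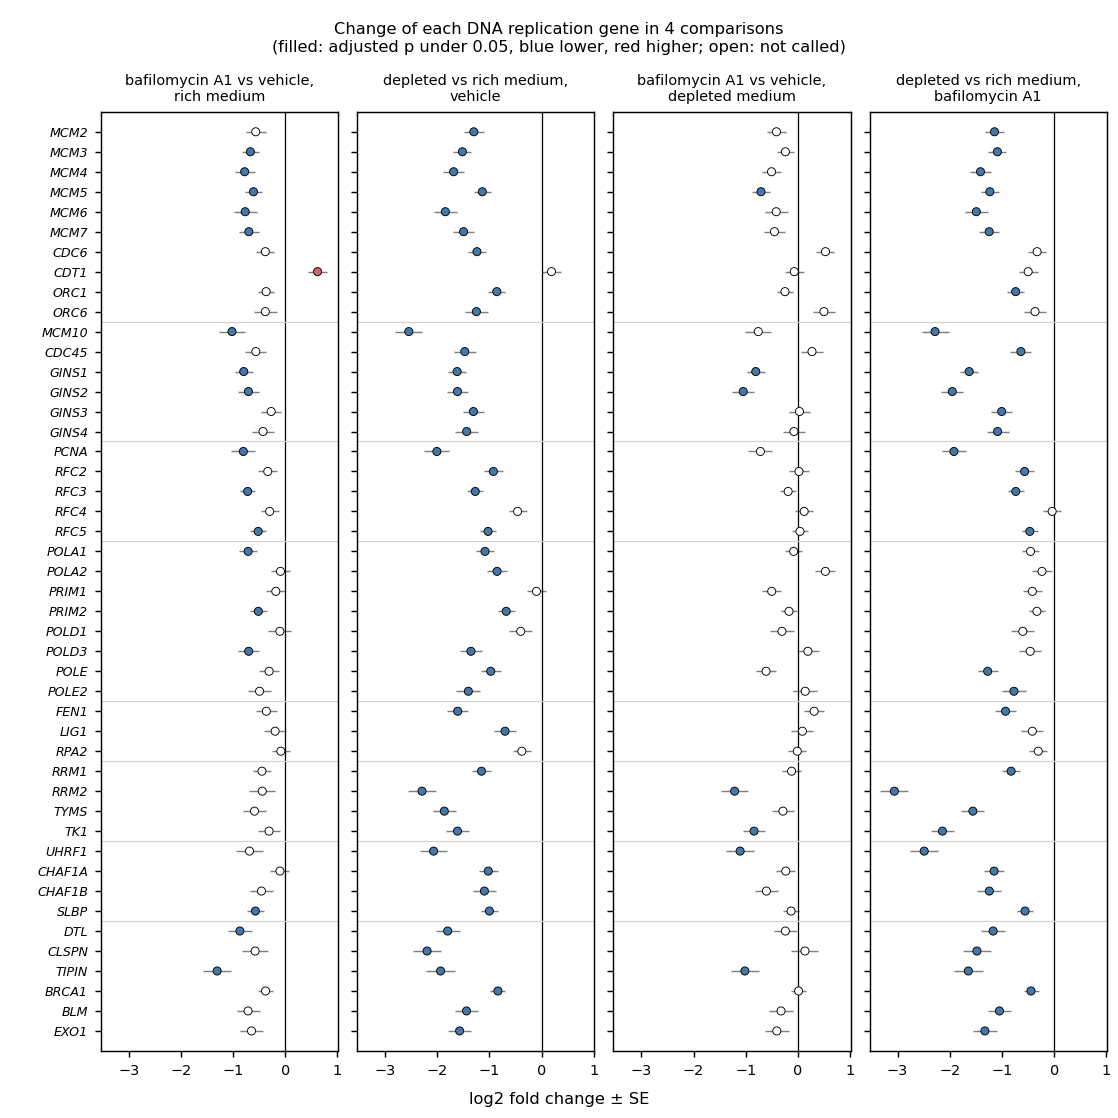
Log2 fold change (x axis, bars are the SE) of each of the 46 genes (rows) in 4 comparisons (panels), with filled points for an adjusted p under 0.05 and open points otherwise. Nearly all points lie left of 0 for depletion with vehicle, where 41 are filled, while in depleted medium the bafilomycin A1 points lie on both sides and 7 are filled.

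Promoters are shown because these genes moved together under depletion. RefSeq promoter windows on GRCh38.p14 (250 bases before to 50 after a start) were found for 41 of the 46 genes. MCM4, MCM5, GINS4, POLD3 and RPA2 had no entry. An E2F motif was searched as TTTCCCGC, TTTCGCGC, TTTGCCGC or TTTGGCGC on both strands, and 22 of the 41 genes (53.7%) held one in a window, against 5.40% of 15842 protein-coding genes and 3.99% of all genes of the table. The share was 32.5% of 40 other replication genes and 36.4% of 11 regulators of G1. Each sequence below runs 5′ to 3′ from 150 bases before to 30 after the start, with the E2F match in capitals. MCM3 lies at chr6:52284713-52284892 (- strand), PCNA at chr20:5126593-5126772 (- strand), UHRF1 at chr19:4909351-4909530 (+ strand) and CLSPN at chr1:35769949-35770128 (- strand), each with 1 match in the stretch shown.
MCM3: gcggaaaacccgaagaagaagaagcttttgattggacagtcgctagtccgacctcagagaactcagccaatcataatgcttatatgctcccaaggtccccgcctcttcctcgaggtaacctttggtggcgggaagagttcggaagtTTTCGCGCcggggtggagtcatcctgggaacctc
PCNA: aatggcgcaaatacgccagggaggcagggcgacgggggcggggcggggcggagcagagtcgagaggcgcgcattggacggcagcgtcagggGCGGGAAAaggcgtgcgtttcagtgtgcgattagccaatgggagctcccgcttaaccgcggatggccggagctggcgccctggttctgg
UHRF1: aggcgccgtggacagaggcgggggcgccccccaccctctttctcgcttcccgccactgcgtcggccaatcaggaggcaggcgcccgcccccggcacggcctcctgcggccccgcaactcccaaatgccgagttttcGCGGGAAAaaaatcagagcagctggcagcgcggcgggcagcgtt
CLSPN: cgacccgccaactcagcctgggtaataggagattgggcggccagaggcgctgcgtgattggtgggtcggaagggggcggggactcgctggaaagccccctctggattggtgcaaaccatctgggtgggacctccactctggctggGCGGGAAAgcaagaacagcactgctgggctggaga
MCM10 at chr10:13161408-13161587 (+ strand) and RRM2 at chr2:10122589-10122768 (+ strand), which had the largest falls under depletion, hold none of the E2F strings searched in their windows. Other forms of the motif were not searched. RRM2 has 3 CCAAT boxes.
MCM10: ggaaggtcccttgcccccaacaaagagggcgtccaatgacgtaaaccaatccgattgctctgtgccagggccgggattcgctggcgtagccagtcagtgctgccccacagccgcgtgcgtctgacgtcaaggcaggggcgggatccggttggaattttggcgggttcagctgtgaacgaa
RRM2: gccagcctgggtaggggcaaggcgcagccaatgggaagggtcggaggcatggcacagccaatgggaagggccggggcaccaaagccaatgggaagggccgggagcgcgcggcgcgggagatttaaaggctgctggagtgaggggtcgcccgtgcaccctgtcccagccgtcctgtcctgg

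The CCAAT box was in the windows of 25 of the 41 genes (61.0%, against 42.1% of protein-coding genes), and the GC box GGGCGG, which overlaps the E2F match in PCNA and CLSPN, in 75.6% against 64.3%. The CHR motif (TTTGAA or TTCGAA), known from genes of mitosis, was found in 2 of the 41 (MCM6 and RRM1, 4.88%) but in 20 of 25 mitosis genes with an entry (80%), whose E2F share was 12%. The median log2 fold change with depletion was -1.51 for the 22 genes with an E2F match and -1.03 for the 19 without. Both sets overlapped widely, from -2.20 to 0.19 with a match and from -2.55 to -0.10 without. A match describes letters in a window and shows neither binding nor a cause.

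**Figure D3:**
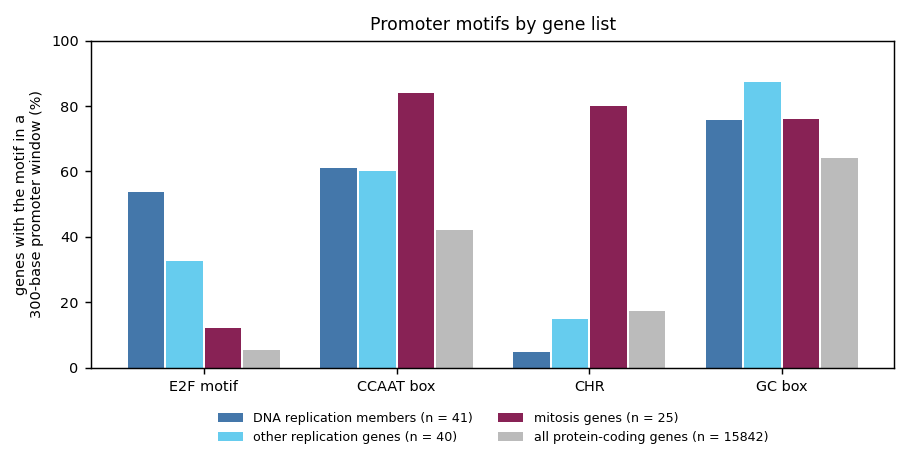
Share of genes (y axis, percent) with each of 4 motifs in a 300-base promoter window, for the replication genes, the other lists and all protein-coding genes (bars). The E2F bar is highest for the replication genes at 53.7%, and the CHR bar is highest for the mitosis genes at 80%.

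Of the 10 licensing genes 9 fell in depleted medium. Levels are given as CPM, the read count over the TMM-scaled library total, in the order of replicates 1 to 3. MCM3, a subunit of the helicase ring, stood at 243, 236 and 236 CPM with vehicle in rich medium, 165, 176 and 108 with bafilomycin A1 there, 81.6, 88.9 and 79.1 with vehicle in depleted medium, and 62.6, 75.1 and 73.6 with bafilomycin A1 there. No group overlapped another, and the levels stepped down in that order. Depletion changed MCM3 by a log2 value of -1.52 ± 0.17 (SE; adjusted p = 4.4e-05). MCM4, another subunit, stood at 285, 280.1 and 289.7 CPM with vehicle in rich medium, 182, 208 and 108 with bafilomycin A1 there, 86.9, 91.4 and 87.4 with vehicle in depleted medium, and 61.7, 60.5 and 64.9 with bafilomycin A1 there. Its groups were ordered and separated in the same way, with a depletion change of -1.69 ± 0.19 (SE; adjusted p = 4.7e-05). MCM5 stood at 65.2, 95.1 and 84.5 CPM with vehicle in rich medium, 52.97, 63.2 and 44.3 with bafilomycin A1 there, 35.2, 38.6 and 37.7 with vehicle in depleted medium, and 23.1, 23.6 and 21.6 with bafilomycin A1 there, again without overlap, and fell by depletion (-1.14 ± 0.17 SE, adjusted p = 1.9e-04). The rest of the ring fell too, with MCM6 at -1.84 (adjusted p = 6.0e-05), MCM7 at -1.496 (adjusted p = 9.0e-05) and MCM2 at -1.30 (adjusted p = 1.9e-04). ORC1 and ORC6, of the complex that marks origins, fell as well (-0.86 and -1.25).

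The 2 loaders of the ring differed from each other. CDC6 stood at 90.2, 77.8 and 78.5 CPM with vehicle in rich medium, 76.3, 67.1 and 45.4 with bafilomycin A1 there, 30.99, 37.8 and 35.5 with vehicle in depleted medium, and 49.4, 51.5 and 49.6 with bafilomycin A1 there. All depleted vehicle libraries were below all others, and the depleted libraries with bafilomycin A1 lay above them without overlap. Depletion changed CDC6 by -1.24 ± 0.17 (SE; adjusted p = 1.4e-04). CDT1, which in growing cells is destroyed in S phase and held in check by geminin, stood at 71.5, 118 and 122.7 CPM with vehicle in rich medium, 162, 179 and 139 with bafilomycin A1 there, 122, 109.7 and 125 with vehicle in depleted medium, and 117, 106 and 116 with bafilomycin A1 there. It was lowest in the shallow rich vehicle library, and depleted vehicle libraries overlapped the rich ones (0.19 ± 0.18 SE, adjusted p = 0.46 for depletion). With bafilomycin A1 in rich medium CDT1 was the only member to rise (0.62 ± 0.18 SE, adjusted p = 0.042), with no overlap. That call was lost when any 1 library other than rich vehicle replicate 2 or 3 was left out, and CDT1 was not called without the 2 libraries that stood apart.

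All 6 genes of helicase activation fell with depletion. MCM10, which helps start unwinding, stood at 92.5, 73.1 and 64.02 CPM with vehicle in rich medium, 43.5, 47.6 and 21.8 with bafilomycin A1 there, 11.8, 14.99 and 12.5 with vehicle in depleted medium, and 8.33, 8.54 and 6.26 with bafilomycin A1 there. The 4 groups did not overlap, and the depleted vehicle mean was 17.1% of the rich vehicle mean, a log2 change of -2.55 ± 0.26 (SE; adjusted p = 2.1e-05). GINS1, of the GINS complex of the active helicase, stood at 145, 114 and 169.5 CPM with vehicle in rich medium, 92.6, 91.5 and 62.4 with bafilomycin A1 there, 44.4, 46.99 and 48.1 with vehicle in depleted medium, and 27.7, 26.2 and 25.8 with bafilomycin A1 there. GINS2 stood at 62.95, 41.8 and 69.8 CPM with vehicle in rich medium, 39.96, 40.8 and 26.1 with bafilomycin A1 there, 17.4, 20.2 and 19.5 with vehicle in depleted medium, and 8.78, 8.99 and 9.83 with bafilomycin A1 there. Both stepped down over the 4 groups without overlap, with depletion changes of -1.62 (adjusted p = 3.4e-05) and -1.61 (adjusted p = 8.7e-05). GINS3, from the same complex, stood at 25.2, 21.7 and 25.01 CPM with vehicle in rich medium, 22.7, 22.7 and 14.2 with bafilomycin A1 there, 9.53, 10.9 and 8.65 with vehicle in depleted medium, and 9.03, 10.7 and 9.95 with bafilomycin A1 there. It separated by medium alone (-1.31 ± 0.20 SE, adjusted p = 2.4e-04), with vehicle and bafilomycin A1 libraries overlapping in each medium. GINS4 changed by -1.44 (adjusted p = 2.0e-04) and CDC45 by -1.47 (adjusted p = 1.3e-04).

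Of the clamp and its loader, 4 of 5 genes fell. PCNA, the clamp that tethers polymerases, stood at 268, 188 and 255 CPM with vehicle in rich medium, 168, 156 and 82.9 with bafilomycin A1 there, 54.1, 66.3 and 56.3 with vehicle in depleted medium, and 29.6, 36.6 and 41.2 with bafilomycin A1 there. The groups did not overlap, and depletion changed PCNA by -2.01 ± 0.24 (SE; adjusted p = 5.0e-05). RFC3, a small subunit of the loader, stood at 104, 84.7 and 97.4 CPM with vehicle in rich medium, 66.1, 60.6 and 46.4 with bafilomycin A1 there, 38.7, 40.1 and 39.4 with vehicle in depleted medium, and 35.6, 34.5 and 33.8 with bafilomycin A1 there, also without overlap, with a depletion change of -1.27 ± 0.15 (SE; adjusted p = 5.0e-05). RFC4, another small subunit, stood at 19.6, 18.2 and 20.7 CPM with vehicle in rich medium, 17.1, 15.3 and 15.2 with bafilomycin A1 there, 13.6, 15.2 and 13.8 with vehicle in depleted medium, and 12.7, 15.03 and 18.6 with bafilomycin A1 there. Its depleted vehicle libraries were below the rich ones without overlap, yet the change did not pass (-0.46 ± 0.17 SE, adjusted p = 0.053). RFC5 (-1.03, adjusted p = 1.8e-04) and RFC2 (-0.92, adjusted p = 0.0018) fell.

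Of the 8 polymerase and primase genes 6 fell. POLA1, the catalytic subunit of polymerase alpha, stood at 58.9, 50.1 and 39.6 CPM with vehicle in rich medium, 30.7, 33.5 and 26.2 with bafilomycin A1 there, 22.9, 24.6 and 22.5 with vehicle in depleted medium, and 21.1, 21.4 and 23.7 with bafilomycin A1 there. The rich groups were separate from each other and from the depleted ones, which overlapped, and depletion changed POLA1 by -1.08 ± 0.17 (SE; adjusted p = 2.6e-04). POLD3, an accessory subunit of polymerase delta, stood at 63.8, 43.9 and 53.6 CPM with vehicle in rich medium, 31.8, 42.6 and 24.6 with bafilomycin A1 there, 20.4, 18.1 and 24.4 with vehicle in depleted medium, and 22.9, 22.1 and 26.9 with bafilomycin A1 there. Rich vehicle was the highest group without overlap, and the depletion change was -1.35 ± 0.21 (SE; adjusted p = 2.6e-04). PRIM1, the catalytic primase subunit, stood at 23.6, 22.7 and 38.5 CPM with vehicle in rich medium, 23.4, 25.8 and 25.7 with bafilomycin A1 there, 25.4, 26.7 and 27.3 with vehicle in depleted medium, and 18.05, 19.6 and 18.3 with bafilomycin A1 there. Its first 3 groups overlapped and only the depleted bafilomycin A1 libraries were below all others. PRIM1 had a depletion change of -0.10 ± 0.19 (SE; adjusted p = 0.72), while POLA1, its partner, fell. POLE2 had the largest fall of these 8 (-1.40, adjusted p = 4.3e-04), and POLE (-0.98, adjusted p = 0.0016), POLA2 (-0.85, adjusted p = 0.0038) and PRIM2 (-0.68, adjusted p = 0.0049) fell too. POLD1, the catalytic subunit of polymerase delta, did not pass (-0.40, adjusted p = 0.18).

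FEN1, the nuclease that trims Okazaki fragments, stood at 68.7, 84.9 and 97.2 CPM with vehicle in rich medium, 72.2, 78.1 and 44.9 with bafilomycin A1 there, 24.8, 29.01 and 28.6 with vehicle in depleted medium, and 31.2, 33.1 and 38.02 with bafilomycin A1 there. The rich groups overlapped, the depleted groups were below them, and the bafilomycin A1 libraries lay above the vehicle ones in depleted medium. The depletion change was -1.61 ± 0.20 (SE; adjusted p = 6.6e-05). LIG1, the ligase that joins the fragments, stood at 17.1, 26.1 and 22.4 CPM with vehicle in rich medium, 19.03, 23.2 and 15.2 with bafilomycin A1 there, 12.8, 14.8 and 12.9 with vehicle in depleted medium, and 11.67, 14.01 and 17.4 with bafilomycin A1 there. It fell by less (-0.70 ± 0.21 SE, adjusted p = 0.020), and this was the only depletion call lost when 1 library was left out, namely rich vehicle replicate 2 or depleted vehicle replicate 1 or 3. RPA2, which coats single-stranded DNA, stood at 46.2, 33.5 and 49.2 CPM with vehicle in rich medium, 43.3, 41.8 and 36.3 with bafilomycin A1 there, 31.5, 30.04 and 37.5 with vehicle in depleted medium, and 30.7, 30.9 and 36.6 with bafilomycin A1 there. Its groups overlapped throughout (-0.38 ± 0.17 SE, adjusted p = 0.10).

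All 4 nucleotide supply genes fell with depletion, at a median of -1.74. RRM2, the small subunit of ribonucleotide reductase that is made in S phase, stood at 177, 149 and 161 CPM with vehicle in rich medium, 141, 154 and 63.7 with bafilomycin A1 there, 29.6, 37.9 and 31.97 with vehicle in depleted medium, and 17.1, 13.3 and 12.4 with bafilomycin A1 there. The rich groups overlapped, and both depleted groups were lower and separate from each other. Depletion changed RRM2 by -2.29 ± 0.26 (SE; adjusted p = 4.3e-05) with vehicle and -3.06 ± 0.27 (SE; adjusted p = 1.0e-05) with bafilomycin A1. RRM1, the large subunit, stood at 199, 171 and 158 CPM with vehicle in rich medium, 144, 151 and 92.5 with bafilomycin A1 there, 80.5, 75.9 and 81.03 with vehicle in depleted medium, and 73.8, 63.8 and 80.7 with bafilomycin A1 there. Its depleted groups overlapped, and the depletion change was -1.15 ± 0.18 (SE; adjusted p = 2.9e-04). TYMS, which makes thymidylate, stood at 102, 68.3 and 106 CPM with vehicle in rich medium, 69.3, 73.9 and 40.1 with bafilomycin A1 there, 23.5, 27.9 and 24.6 with vehicle in depleted medium, and 21.8, 21.4 and 18.98 with bafilomycin A1 there. It separated by medium, with a change of -1.86 ± 0.22 (SE; adjusted p = 5.1e-05). TK1, the thymidine salvage kinase, stood at 89.6, 100.4 and 139.8 CPM with vehicle in rich medium, 98.2, 107 and 61.3 with bafilomycin A1 there, 29.6, 39.98 and 38.5 with vehicle in depleted medium, and 19.5, 20.3 and 20.5 with bafilomycin A1 there. The rich groups overlapped and the depleted ones did not, and the depletion change was -1.61 ± 0.21 (SE; adjusted p = 9.5e-05).

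All 4 chromatin and histone supply genes fell. UHRF1, which brings the maintenance methyltransferase to newly copied DNA, stood at 62.2, 86.6 and 66.8 CPM with vehicle in rich medium, 52.2, 58.3 and 23.6 with bafilomycin A1 there, 16.8, 17.8 and 16.8 with vehicle in depleted medium, and 6.97, 7.60 and 9.33 with bafilomycin A1 there. The 4 groups did not overlap, and the depletion change was -2.07 ± 0.27 (SE; adjusted p = 7.9e-05). SLBP, which binds the stem-loop of histone mRNAs, stood at 127, 93.6 and 131 CPM with vehicle in rich medium, 81.7, 89.1 and 65.6 with bafilomycin A1 there, 56.1, 58.1 and 61.5 with vehicle in depleted medium, and 55.1, 51.4 and 54.02 with bafilomycin A1 there, with narrow gaps but no overlap (-1.001 ± 0.16 SE, adjusted p = 3.2e-04). CHAF1B, of the chaperone that places new histones behind the fork, stood at 22.7, 18.2 and 19.6 CPM with vehicle in rich medium, 16.5, 17.6 and 9.75 with bafilomycin A1 there, 10.6, 8.54 and 9.01 with vehicle in depleted medium, and 5.87, 5.42 and 7.30 with bafilomycin A1 there. Rich bafilomycin A1 replicate 3 lay within the depleted vehicle range, and the depletion change was -1.10 ± 0.23 (SE; adjusted p = 0.0021). CHAF1A, of the same chaperone, changed by -1.02 (adjusted p = 8.3e-04).

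The 6 fork protection and repair genes all fell, at a median of -1.69. CLSPN encodes claspin, which relays the checkpoint signal from stalled forks, and stood at 46.4, 50.4 and 33.3 CPM with vehicle in rich medium, 35.5, 35.5 and 15.96 with bafilomycin A1 there, 9.23, 10.7 and 8.44 with vehicle in depleted medium, and 10.05, 11.3 and 9.83 with bafilomycin A1 there. Vehicle and bafilomycin A1 libraries overlapped in each medium, with no overlap between media (-2.20 ± 0.27 SE, adjusted p = 5.7e-05 for depletion). DTL, the substrate receptor of the ligase that destroys CDT1, stood at 67.7, 48.2 and 42.6 CPM with vehicle in rich medium, 33.5, 33.6 and 19.4 with bafilomycin A1 there, 14.04, 17.8 and 13.6 with vehicle in depleted medium, and 13.4, 13.5 and 11.4 with bafilomycin A1 there. Its groups stepped down without overlap, with a depletion change of -1.80 ± 0.23 (SE; adjusted p = 7.9e-05). TIPIN, of the fork protection complex, stood at 28.1, 15.1 and 18.1 CPM with vehicle in rich medium, 9.35, 9.73 and 5.55 with bafilomycin A1 there, 5.49, 5.58 and 4.87 with vehicle in depleted medium, and 3.05, 2.13 and 2.68 with bafilomycin A1 there. It was low in all but the rich vehicle libraries, rich bafilomycin A1 replicate 3 lay within the depleted vehicle range, and depletion changed it by -1.94 ± 0.27 (SE; adjusted p = 1.4e-04). BRCA1, a recombination repair protein, stood at 94.9, 76.4 and 71.7 CPM with vehicle in rich medium, 65.7, 67.2 and 53.7 with bafilomycin A1 there, 43.9, 46.8 and 45.2 with vehicle in depleted medium, and 46.3, 45.5 and 45.3 with bafilomycin A1 there. Its fall was the smallest of these 6 (-0.84 ± 0.14 SE, adjusted p = 6.0e-04), and its depleted groups overlapped. EXO1 (-1.57, adjusted p = 1.7e-04) and BLM (-1.44, adjusted p = 2.9e-04) fell as well.

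**Figure D4:**
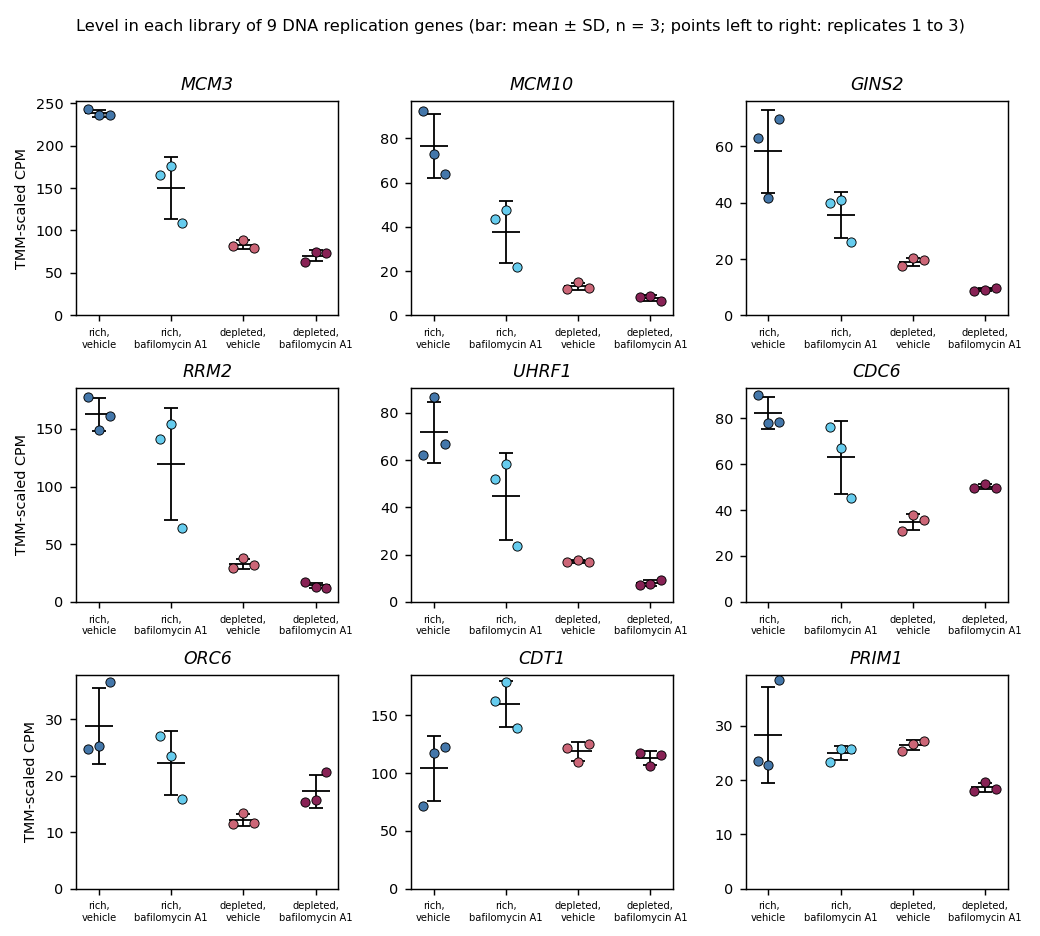
TMM-scaled CPM (y axis, from 0) of 9 replication genes in the 4 groups (x axis), with 1 point per library and a bar for the mean ± SD (n = 3). RRM2, GINS2 and UHRF1 step down again with bafilomycin A1 in depleted medium, whereas CDC6 stands at 50.2 CPM there against 34.8 with vehicle.

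Bafilomycin A1 in rich medium lowered a smaller share of the set by smaller amounts. Of 46 genes 17 fell and 1, CDT1, rose, against backgrounds of 4.78% lower and 6.15% higher over all tested genes. The median log2 fold change was -0.52, with 0.02 over all genes, and 28 genes were lower without overlap (11.1% of all genes). TIPIN (-1.31 ± 0.27 SE, adjusted p = 0.0067), MCM10 (-1.02 ± 0.25 SE, adjusted p = 0.017) and DTL (-0.87 ± 0.22 SE, adjusted p = 0.023) changed most. PCNA, GINS1, GINS2, RFC3, RFC5, POLA1, POLD3, PRIM2, SLBP and MCM3 to MCM7 also fell, by log2 values between -0.80 and -0.52. None of the 4 nucleotide supply genes passed, with RRM2 at -0.44 (adjusted p = 0.28), TYMS at -0.59 (adjusted p = 0.091), RRM1 at -0.45 (adjusted p = 0.12) and TK1 at -0.31 (adjusted p = 0.37). This comparison shares its rich vehicle libraries with depletion under vehicle, so their values are not independent.

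Replicate 3 with bafilomycin A1 was lower than its group in 45 of 46 genes. Without it 5 genes fell (5.42% of all genes were called, in either direction) and the median was -0.32. The number called was 8 without rich vehicle replicate 1, 11 (10 lower, 1 higher) without rich vehicle replicate 3, 10 without bafilomycin A1 replicate 1, 10 without depleted vehicle replicate 1 and 11 without depleted bafilomycin A1 replicate 2. In these fits 6.38% to 12% of all genes were called, in either direction. With any 1 library other than bafilomycin A1 replicate 3 left out, the median lay between -0.67 and -0.47. Without both libraries that stood apart 4 were called (MCM4, MCM5, MCM7 and RFC3), at a median of -0.30, and 5.45% of all genes were. MCM4, GINS1, RFC3 and TIPIN kept their calls when any 1 of the 12 libraries was left out. A fit of the 6 libraries compared called TIPIN alone, at a median of -0.54. That fit called 2.96% of all genes, so 1 of 46 is near that background. On the deposited TPM (limma) none of the 46 passed (26 lower at an unadjusted p under 0.05), at a median of -0.70 (-0.11 over all genes). This fit called 1.06% of all genes. In TPM rich vehicle replicate 3 was low for members such as MCM2 (84.6, 91.7 and 42.5 in replicates 1 to 3). MCM2 showed no such drop in CPM (157, 196 and 171). Whether this wider spread took away the calls was not tested.

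**Figure D5:**
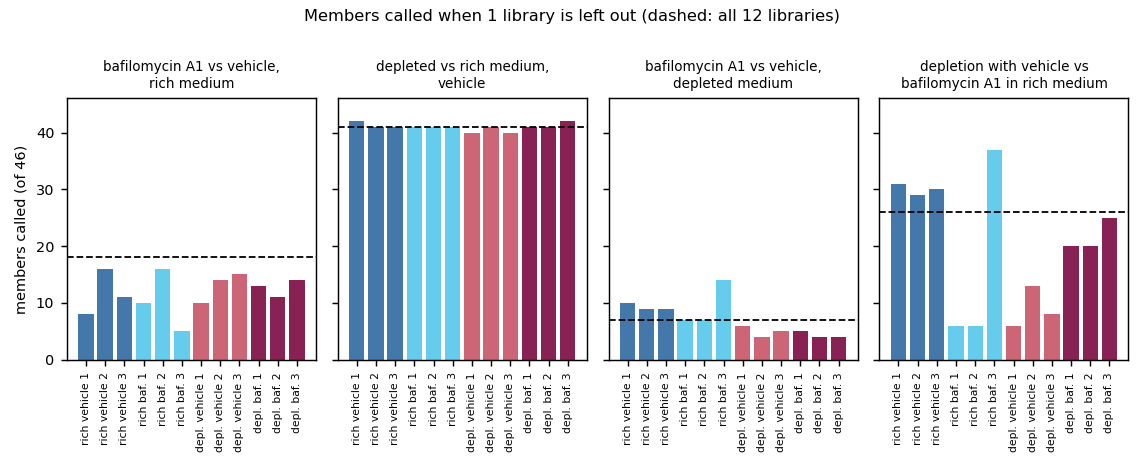
Number of the 46 genes called (y axis) when each of the 12 libraries is left out (x axis), for 4 comparisons (panels), with a dashed line at the count with all libraries. The depletion bars stay between 40 and 42, and the bafilomycin A1 bars in rich medium drop to 5 without replicate 3 of that group.

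In depleted medium bafilomycin A1 lowered 7 of the 46 genes, against 5.91% of all genes called lower. These were RRM2 (-1.21 ± 0.25 SE, adjusted p = 0.0070), UHRF1 (-1.11 ± 0.26 SE, adjusted p = 0.014), GINS2 (-1.05 ± 0.21 SE, adjusted p = 0.0053), TIPIN (-1.02 ± 0.27 SE, adjusted p = 0.026), TK1 (-0.84 ± 0.21 SE, adjusted p = 0.018), GINS1 (-0.81 ± 0.18 SE, adjusted p = 0.0084) and MCM5 (-0.71 ± 0.17 SE, adjusted p = 0.013). RRM2, already at 33.2 CPM with vehicle, stood at 14.3 with bafilomycin A1. The set as a whole did not move one way. Its median was -0.24 (-0.03 over all genes), 32 values were negative, 27 genes were lower without overlap (20.1% of all genes), and CDC6, ORC6, CDC45, POLA2 and FEN1 were higher without overlap (19.8%). The higher values did not pass, with CDC6 at 0.53 (adjusted p = 0.061), POLA2 at 0.53 (adjusted p = 0.089) and ORC6 at 0.50 (adjusted p = 0.16).

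GINS1, GINS2 and RRM2 kept their calls when any 1 library was left out. UHRF1 lost its call without depleted bafilomycin A1 replicate 1 or 2, and MCM5 without depleted vehicle replicate 2 or depleted bafilomycin A1 replicate 3. TIPIN lost its call without any 1 depleted vehicle replicate or depleted bafilomycin A1 replicate 2 or 3, and TK1 without depleted vehicle replicate 2 or 3 or any 1 depleted bafilomycin A1 replicate. Without depleted vehicle replicate 2, or depleted bafilomycin A1 replicate 2 or 3, 4 genes were called, and without rich bafilomycin A1 replicate 3, a library of neither group compared here, 14 were (12 lower, 2 higher). In these fits 5.52%, 5.5%, 4.7% and 11.4% of all genes were called, in either direction. Without both libraries that stood apart 15 fell and 2, CDC6 and POLA2, rose. Calls over all genes rose too, to 18.6% in either direction, from 5.91% lower and 5.5% higher with all libraries. The median turned to 0.05 on the deposited TPM, where the median of all genes was 0.15 and none of the 46 passed (limma, 2 lower and 3 higher at an unadjusted p under 0.05), so that in TPM the set was lower only relative to all genes. That fit called 3.45% of all genes.

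Depletion in the presence of bafilomycin A1 lowered 34 of the 46 genes (13.6% of all genes lower), at a median of -1.03 (0.01 over all genes), and 37 were lower without overlap (23.8%). RRM2 (-3.06), UHRF1 (-2.49), MCM10 (-2.28), TK1 (-2.14) and GINS2 (-1.95) changed most. CDC6 (-0.33, adjusted p = 0.19), ORC6 (-0.37, adjusted p = 0.24), POLA1 (-0.45, adjusted p = 0.058), POLA2 (-0.23, adjusted p = 0.41), POLD3 (-0.46, adjusted p = 0.12), PRIM2 (-0.33, adjusted p = 0.15) and LIG1 (-0.42, adjusted p = 0.17), which fell with depletion under vehicle, did not pass here. Without both libraries that stood apart 42 fell, and 32.4% of all genes were called in either direction. On the deposited TPM (limma) 11 of the 46 were called, all lower, and 9.14% of all genes were called in either direction.

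Whether the response to bafilomycin A1 differed between the media was tested as an interaction (the log2 change in depleted medium less the one in rich medium). CDC6 was the only one of the 46 called, at 0.91 ± 0.24 (SE; adjusted p = 0.040), a share near the backgrounds of 2.35% called higher and 3.83% called lower. Its bafilomycin A1 change was -0.38 ± 0.17 in rich medium and 0.53 ± 0.17 in depleted medium, with neither passing alone. The call was lost without rich vehicle replicate 1, rich bafilomycin A1 replicate 2 or 3 or any 1 depleted library (log2 0.72 and adjusted p = 0.066 without rich bafilomycin A1 replicate 3), and it was lost without both libraries that stood apart (log2 0.65, adjusted p = 0.061). Interaction values for POLD3 (0.89, adjusted p = 0.081), ORC6 (0.88, adjusted p = 0.10) and CDC45 (0.83, adjusted p = 0.097) did not pass, nor did the negative ones of RRM2 (-0.77, adjusted p = 0.21) and CDT1 (-0.69, adjusted p = 0.13). The median over the members was 0.30, with -0.05 over all genes. It was 0.10 without rich bafilomycin A1 replicate 3, 0.04 without both libraries that stood apart, and 0.81 on the deposited TPM (0.28 over all genes). RRM2 was called lower (log2 -1.14, adjusted p = 0.020) when both libraries that stood apart were left out, and also without rich bafilomycin A1 replicate 3 alone (log2 -1.08, adjusted p = 0.025). In these fits 4.28% and 3.21% of all genes were called.

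Depletion with vehicle was also compared directly with bafilomycin A1 in rich medium. A total of 26 of the 46 genes were lower under depletion (3.14% of all genes), at a median of -0.78 (0.03 over all genes), and 41 were lower without overlap (17% of all genes). RRM2 (-1.85 ± 0.26 SE, adjusted p = 0.0011), CLSPN (-1.62 ± 0.26 SE, adjusted p = 0.0033), MCM10 (-1.52 ± 0.25 SE, adjusted p = 0.0037), UHRF1 (-1.38 ± 0.26 SE, adjusted p = 0.0091), TK1 (-1.30 ± 0.21 SE, adjusted p = 0.0034) and TYMS (-1.27 ± 0.22 SE, adjusted p = 0.0048) differed most. All 4 nucleotide supply genes and all 6 helicase activation genes were among the 26, but 1 of 5 clamp genes (PCNA) and 2 of 8 polymerase genes (POLA2 and POLE2). RFC4 (-0.16, adjusted p = 0.64), POLA1 (-0.37, adjusted p = 0.21), PRIM2 (-0.16, adjusted p = 0.61) and TIPIN (-0.63, adjusted p = 0.19) did not pass. The count was 37 without rich bafilomycin A1 replicate 3 (11.1% of all genes called, in either direction) and 41 without both libraries that stood apart (18.7%). It was 6 without rich bafilomycin A1 replicate 1 or 2 or depleted vehicle replicate 1, 13 without depleted vehicle replicate 2 and 8 without depleted vehicle replicate 3. Those last fits called 0.745% to 1.53% of all genes. Over all 12 cases of 1 library left out the median lay between -0.96 and -0.63. On the deposited TPM (limma) 3 were called, at a median of -0.78, and 0.875% of all genes were called in either direction. MCM10, FEN1, RRM2, TYMS, TK1 and CLSPN kept their calls when any 1 library was left out.

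Levels of different members were compared in TPM, by group mean or within each library. By group mean PCNA was the most abundant in rich medium with vehicle, at 287 ± 113 TPM (SD, n = 3), followed by MCM7 at 114 ± 36.6 and MCM3 at 112 ± 40.1, and CLSPN was the least, at 7.25 ± 3.38. Single libraries of that group differed. TK1 was above MCM7 in replicates 1 and 3, and GINS4 was below CLSPN in replicate 2 (8.97 and 9.17 TPM). Of the ring subunits MCM5 had the lowest TPM in all 12 libraries, and of the GINS complex GINS1 was highest and GINS4 lowest in all 12. The balance of partners differed between groups in several pairs. RRM2 to RRM1 was 0.894 ± 0.0858 with vehicle and 0.869 ± 0.172 with bafilomycin A1 in rich medium, 0.409 ± 0.0698 with vehicle and 0.193 ± 0.0431 with bafilomycin A1 in depleted medium. The depleted libraries were all below the rich ones, and the depleted bafilomycin A1 libraries the lowest. CDT1 to GMNN, its inhibitor geminin, was 0.914 ± 0.445 in rich medium with vehicle, 2.10 ± 0.194 with bafilomycin A1, 2.05 ± 0.143 in depleted medium with vehicle and 2.64 ± 0.0882 with bafilomycin A1, so the rich vehicle libraries were the lowest. GINS2 to GINS3 was 1.95 ± 0.355, 1.48 ± 0.0299, 1.64 ± 0.194 and 0.776 ± 0.0717 in the same order of groups. Only the depleted bafilomycin A1 libraries were apart from all others, and depleted vehicle overlapped both rich groups. PRIM1 to POLA1 was 2.55 ± 1.32, 3.47 ± 0.550, 4.78 ± 0.338 and 3.51 ± 0.325. Depleted vehicle was the highest group without overlap. The rich vehicle libraries (1.69, 1.89 and 4.07) overlapped both bafilomycin A1 groups. These ratios are descriptions and were not tested.

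Other genes of the same processes (51, all tested) were counted beside the members. With depletion under vehicle 42 fell and 1 rose, at a median of -0.89 (15.4% of all genes were called lower and 15.5% higher). HELLS, a chromatin remodeller, stood at 521, 477 and 320.4 CPM with vehicle in rich medium, 245, 244 and 158 with bafilomycin A1 there, 137, 146 and 112 with vehicle in depleted medium, and 81.99, 89.2 and 81.5 with bafilomycin A1 there. It changed by -1.74 ± 0.21 (SE; adjusted p = 5.7e-05), and vehicle libraries were separate between media. DSCC1, of an alternative clamp loader (-1.90 ± 0.27 SE, adjusted p = 1.4e-04), and BARD1, the partner of BRCA1 (-1.15 ± 0.16 SE, adjusted p = 1.4e-04), also fell. POLD4, the small subunit of polymerase delta, was the gene that rose (1.38 ± 0.25 SE, adjusted p = 8.8e-04). It stood at 4.99, 7.83 and 11.4 CPM with vehicle in rich medium, 18.4, 17.7 and 23.6 with bafilomycin A1 there, 22.3, 18.3 and 23.4 with vehicle in depleted medium, and 25.4, 20.5 and 29.6 with bafilomycin A1 there, so the 3 rich vehicle libraries were below all others. Bafilomycin A1 lowered 17 and raised 1 (POLD4 again) in rich medium, against 4.78% and 6.15% of all genes, at a median of -0.45. Without both libraries that stood apart 1 was lower and 1 higher, at a median of -0.30, where 5.45% of all genes were called in either direction. In depleted medium bafilomycin A1 lowered 5 and raised 3 of the 51, against 5.91% and 5.5% of all genes. Without both libraries it lowered 12 and raised 8, where 18.6% of all genes were called in either direction. Depletion with vehicle lowered 39 and raised 1 of the 51 without both, where 32% of all genes were called in either direction. Among 14 regulators of G1, 10 fell with depletion (10 lower and 1 higher without both libraries). Bafilomycin A1 lowered 1 and raised 1 of the 14 in each medium, shares near those over all genes. Without both libraries these counts were 0 lower and 1 higher in rich medium (5.45% of all genes in either direction). In depleted medium they were 4 lower and 2 higher (18.6%).

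Genes of mitosis, which follow S phase, are set beside the members. All 30 fell with depletion under vehicle (15.4% of all genes), at a median of -1.23. Without both libraries that stood apart 28 did, where 32% of all genes were called in either direction. With bafilomycin A1 28 of the 30 fell in rich medium (4.78% of all genes), at a median of -0.93 against -0.52 for the replication genes. Without replicate 3 of that group 18 fell, at a median of -0.84 against -0.32, and without both libraries 16 fell, at -0.75 against -0.30. In these fits 5.42% and 5.45% of all genes were called, in either direction. In depleted medium 14 of the 30 fell with bafilomycin A1 (5.91% of all genes), at a median of -0.57 against -0.24. Without both libraries 18 did, where 18.6% of all genes were called in either direction. In the direct comparison of depletion with bafilomycin A1 in rich medium 2 of the 30 were lower (3.14% of all genes), at a median of -0.24, where 26 of the 46 replication genes were, at -0.78. Without rich vehicle replicate 1 the mitosis count was 6, without rich bafilomycin A1 replicate 3 it was 8, and without both it was 9, at a median of -0.35 against -0.96 for the replication genes. Over all genes 7.05%, 11.1% and 18.7% were called in these fits. The difference between these lists was not tested.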

How the data were processed

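RNA sequencing libraries (total RNA, ribosomal RNA depleted, stranded kit, per the labels' protocols) were analysed from the per-sample tables deposited by the authors. These give, per the file headers, an estimated count of reads, a TPM value, and a length and effective length for each gene. In the deposited estimated counts 5.08% of values were not whole. A series-wide table of whole-number counts deposited by the authors holds 13518 genes, those at 10 reads or more in every library, and did not differ from the rounded estimated counts. The submitters' processing notes name DRAGEN and GRCh38. The annotation release was not given in the sources used here. Nor was the strand setting.

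Estimated counts were rounded. Low genes were removed with filterByExpr, set to a minimum count of 10 and a minimum total of 15 over the 4 groups, leaving 18047 genes. Library totals were TMM-scaled. All 12 libraries entered 1 fit (edgeR 4.0.16, R 4.3.3, robust quasi-likelihood, 8 residual degrees of freedom), and a call meant an adjusted p (Benjamini-Hochberg, over all genes tested) under 0.05. SE is the log2 fold change over the square root of F. Promoter letters were searched in RefSeq windows with Python 3.11.15. Tested on simulated data for depletion with vehicle (17611 genes), the fit recovered 63% of 2-fold and 93% of 4-fold changes, with 2.5% of calls false. The simulation changed 100 genes of each size, far fewer than were called in the data. It took its spread from the same fit and held no library that stood apart, so rates in the data may differ. With 12969814 reads the shallowest library limits low genes most.

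The members and lists were chosen with earlier results of these data known. Values in every library are given, per role, for the 2 members with the smallest and the 1 with the largest adjusted p under depletion with vehicle, those called against their role, and those called for bafilomycin A1 in depleted medium or the interaction. Of the other replication genes up to 3 per direction are named. Alternatives were DESeq2 1.42.0 (size factors and test), no filter, the 6 libraries compared, a replicate block, the series-wide table, effective-length offsets, scaling without the mitochondrial, ribosomal and small RNA genes, a 1.5-fold minimum, each library left out and the 2 that stood apart left out. Total counts without TMM and deposited TPM with limma 3.58.1, as log2(TPM + 1), were chosen after seeing the data.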

Additional observations from a re-analysis of the deposited data

Results flagged for a closer look

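For CDC6 the change with bafilomycin A1 differed between the 2 media by the test of the difference itself: the interaction was 0.91 on the log2 scale (edgeR's quasi-likelihood test, adjusted p = 0.040). CDC6 stood lower with bafilomycin A1 in 3 of 3 rich-medium libraries and higher in 3 of 3 depleted-medium libraries, though neither change passed alone (adjusted p = 0.17 and 0.061). It was called in 12 of 23 alternatives, with values between 0.65 and 1.34 and adjusted p between 0.010 and 0.15. The call was lost when any 1 depleted library, rich vehicle replicate 1 or rich bafilomycin A1 replicate 2 or 3 was left out. CDC6 was 1 of 46 members called, and 2.35% of all genes were called higher, so the count is near that background.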

How the results depend on the processing

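Leaving out 1 library at a time moved the number of members called between 5 and 16 for bafilomycin A1 in rich medium (18 with all libraries), 40 and 42 for depletion with vehicle (41), 4 and 14 for the same drug in depleted medium (7), 28 and 38 for depletion with bafilomycin A1 (34), 0 and 3 for the interaction (1) and 6 and 37 for depletion against bafilomycin A1 in rich medium (26). Over all genes the share called, in either direction, ran from 5.42% to 14.3%, 20.2% to 32.7% and 4.7% to 16.5% for the first 3. For the others it ran from 12.6% to 29.5%, 2.12% to 9.93% and 0.745% to 11.1%. Fits with fewer libraries have fewer degrees of freedom. Fits of the 6 libraries compared called 1 in rich medium (2.96% of all genes) and 19 (16 lower, 3 higher) in depleted medium (24.9% of all genes). Without both libraries that stood apart the counts were 4 for bafilomycin A1 in rich medium, 17 in depleted medium, 41 for the direct comparison, and 1 for the interaction (RRM2, not CDC6). Over all genes 5.45%, 18.6%, 18.7% and 4.28% were called there. The DESeq2 test called 11 in depleted medium (16.3% of all genes) and 4 for the interaction (11.5%). The fit with no filter called 2 for the interaction (5.57%).

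On the deposited TPM with limma the count was 0 for bafilomycin A1 in rich medium (26 lower at an unadjusted p under 0.05), 0 in depleted medium (2 lower, 3 higher unadjusted), 11 for depletion with bafilomycin A1, 0 for the interaction (14 higher unadjusted) and 3 for the direct comparison (29 lower unadjusted), but 41 for depletion with vehicle. TPM called 1.06%, 3.45%, 9.14%, 0.0166%, 0.875% and 18.1% of all genes in this order, in either direction. The members' medians in TPM were -0.70, 0.05, -0.69, 0.81, -0.78 and -1.45 in this order, against -0.52, -0.24, -1.03, 0.30, -0.78 and -1.30. TPM put the median log2 fold change of all genes at -0.11, -0.14, 0.15, 0.11, 0.28 and -0.03, in the order of comparisons used for the libraries left out. Total counts without TMM gave 0.15 and 0.12 for depletion with vehicle and with bafilomycin A1. The cause of these differences was not tested.

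Of 18 same-number pairs 6 had deviations correlated over 0.1 (all pairs from -0.08 to 0.29). These 6 were the replicate 2 and replicate 3 pairs among rich vehicle, depleted vehicle and depleted bafilomycin A1 (0.21 to 0.29). Pairs with different numbers were not compared, so this check cannot settle whether replicate numbers pair the samples. With the replicate number as a block 23, 42, 11 (9 lower, 2 higher), 37, 1 and 32 members were called in that same order. Over all genes 15.7%, 36%, 16.7%, 29.5%, 10.9% and 8.02% were called.

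Of single-gene values over all alternatives 6109 kept their side of the threshold, 369 lost a call, 196 gained one and none reversed a call.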
